A study of Mus musculus with 20 samples.

Results

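The genes described here encode the chains of the collagens. Members were the genes whose symbol is Col, a number, the letter a and a number, from Col1a1 to Col28a1. That rule took 44 of the 46983 genes in the table of raw counts, on 15 chromosomes. RNA-seq had been done on mouse pancreatic tumours. KPC cells, a mouse pancreatic cancer line, were injected into the pancreas of C57BL/6 mice that were wild type (WT) or IL33-/- (called IL33KO here), and tumours were taken at 2 weeks. The genotype is that of the host, and no change to the Il33 gene of the injected cells is given. Each genotype had 5 libraries of leukocytes, selected from the dissociated tumour on magnetic beads against CD45, and 5 libraries of bulk tumour. No mouse was treated. The labels do not tie libraries to mice and do not say whether the sorted and bulk libraries came from the same tumours, and p-values here reflect only how far the libraries of a group spread, which may be technical in part.

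Collagens are built from 3 alpha chains wound into a triple helix, and a given collagen needs its own set of chains. Fibrillar collagens (types I, III and V among them) form the banded fibrils of stroma and are made mainly by fibroblasts. Type IV collagen forms the sheet under epithelium and endothelium, type VI forms beaded filaments around cells, and pancreatic tumours are known for a dense collagen stroma. Of the 44 members, 11 encode fibrillar chains, 6 basement membrane chains, 6 beaded filament chains and 9 fibril-associated chains. The rest are 4 transmembrane chains, 3 short-chain network chains, 2 multiplexins (basement membrane collagens whose ends carry endostatin-like fragments), Col7a1 of the anchoring fibrils, and Col26a1 and Col28a1.

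The libraries held 51.3 M to 81.0 M counts in genes (M, mega; median 59.5 M). Ptprc, which encodes CD45, had 40.1 to 112 CPM (counts per 1e6) over the bulk libraries, while the sorted libraries ranged from 599 to 886 CPM. Il33 had 4001 to 4726 counts in bulk WT libraries and 3043 to 4452 in those labelled IL33KO, and 272 to 1084 against 705 to 1123 in sorted libraries. It therefore does not check the host genotype, and the groups are named by their labels. On the first principal component of the sorted libraries, which carried 26.3% of the variance, sorted WT 3 (score 63.3) and sorted IL33KO 3 (score 48.0) stood apart from the other libraries (at most 18.6). The summed level of 8 acinar marker genes, which make digestive enzymes of normal pancreas, was 46862 CPM in sorted IL33KO 3 against 729 to 8056 CPM in the other sorted libraries. In bulk it was 9741 CPM in WT 5 and 1843 CPM in IL33KO 3, against 24.8 to 174 CPM in the others.

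Collagen chains together took 0.265 to 0.456% of the counts of bulk WT libraries and 0.335 to 0.843% of those labelled IL33KO, against 0.0463 to 0.143% in sorted libraries of both genotypes. Levels below are CPM, with library sizes scaled by TMM, per kilobase of exon, so that genes can be compared with each other. In bulk WT tumour the highest mean level was that of Col1a1, the main chain of type I collagen, at 67.9 ± 28.8 (SD, n = 5). Col18a1, a multiplexin, followed at 59.3 ± 15.6, then Col6a1 at 52.7 ± 7.72, Col3a1 at 43.8 ± 15.2 and Col4a1 at 43.6 ± 8.73. Neighbours in that order lay within 1 SD of each other, except that the mean of Col3a1 was just below the SD range of Col6a1. Col1a2, the partner chain of Col1a1, was at 36.4 ± 11.2, Col4a2 at 24.4 ± 5.12 and Col6a2 at 13.6 ± 4.05.

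**Figure D1:**
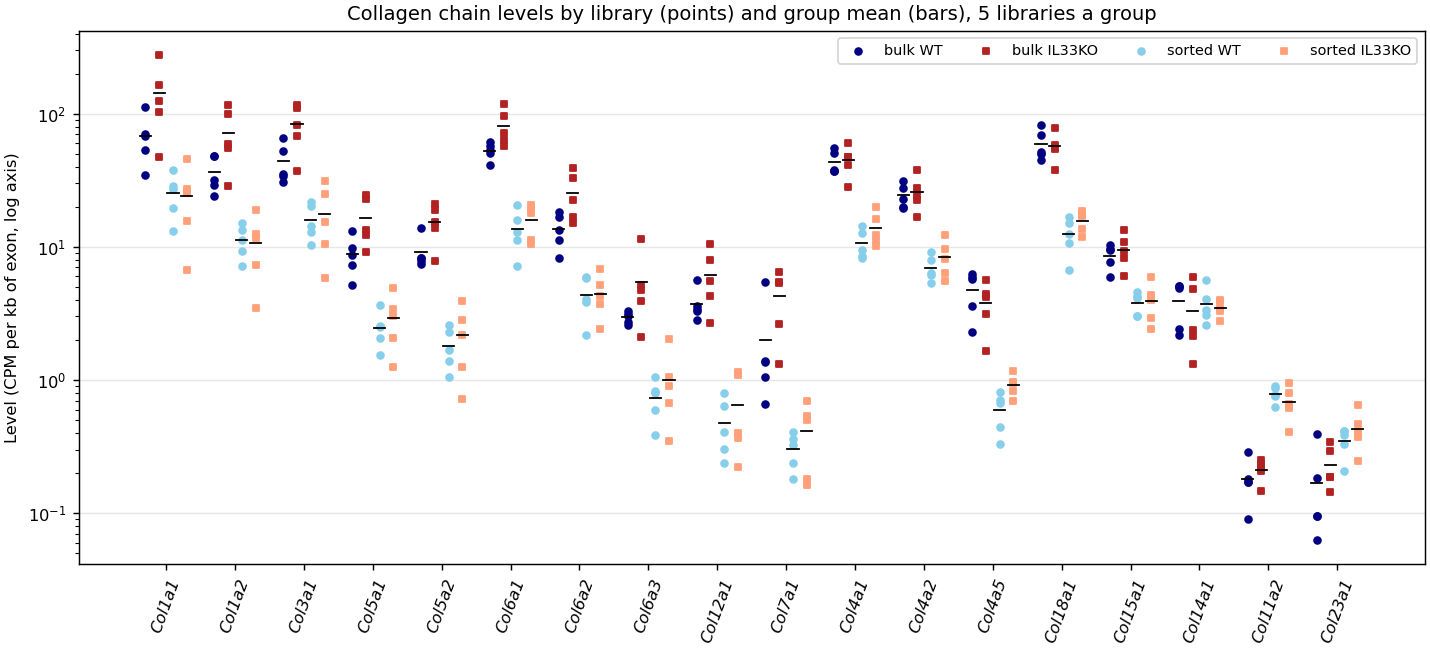
Levels of 18 collagen chains in CPM per kilobase of exon on a log axis; each point is 1 library, the short bar is the mean of 5 libraries, and colours mark the group. Col1a1 has the highest bulk group means (libraries at 34.8 to 274), most chains sit lower in the sorted libraries, and Col11a2 and Col23a1 have their highest means there.

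The low end of the family was close to the limit of counting. The 9 members left out of the bulk tests and of the tests on all 20 libraries for low counts were Col2a1, Col4a3, Col6a4, Col9a1, Col9a2, Col19a1, Col22a1, Col25a1 and Col26a1. Col2a1, the main chain of cartilage fibrils, reached at most 33 counts in a library, and Col9a1 at most 6. Fewer than 10 counts in every library were seen for 3 members. Col4a3 and Col4a4, which with Col4a5 form the basement membrane of the kidney glomerulus, reached at most 17 and 34 counts. Col26a1 was at 0 in bulk WT 1 to 4 and at 0.0158 in bulk WT 5, and in bulk IL33KO 1 to 5 it was at 0.0120, 0, 0.00382, 0 and 0.0101. In the sorted libraries Col26a1 was at 0, 0, 0.00232, 0.00527 and 0.00262 in WT and at 0.00239, 0.0130, 0.00280, 0 and 0.00810 in IL33KO.

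RefSeq's promoter table (GRCm38.p6) held 35 of the 44 members, Col1a1 not among them. The 250 bases before the start are shown for 4: Col3a1, Col5a1 and Col6a2 as chains with higher bulk estimates in libraries labelled IL33KO, and Col11a2 as the chain that stood highest in sorted cells relative to bulk. Capitals mark every match, on either strand, to the letters TATAAA of a typical promoter core, to those of a typical upstream element, CCAAT, and to GGGCGG, the core letters for factors of the Sp family.
Col3a1 (chr1:45311288-45311537, plus strand): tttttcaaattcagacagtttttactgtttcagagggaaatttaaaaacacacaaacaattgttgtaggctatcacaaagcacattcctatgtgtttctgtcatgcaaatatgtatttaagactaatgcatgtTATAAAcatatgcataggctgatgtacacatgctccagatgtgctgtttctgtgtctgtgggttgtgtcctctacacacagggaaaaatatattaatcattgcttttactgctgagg
Col5a1 (chr2:27886175-27886424, plus strand): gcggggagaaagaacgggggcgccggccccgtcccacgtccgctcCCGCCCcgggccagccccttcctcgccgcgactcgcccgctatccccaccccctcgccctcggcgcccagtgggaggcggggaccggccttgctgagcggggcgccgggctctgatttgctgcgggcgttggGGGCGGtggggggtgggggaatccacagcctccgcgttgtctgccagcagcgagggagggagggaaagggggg
Col6a2 (chr10:76623631-76623880, minus strand): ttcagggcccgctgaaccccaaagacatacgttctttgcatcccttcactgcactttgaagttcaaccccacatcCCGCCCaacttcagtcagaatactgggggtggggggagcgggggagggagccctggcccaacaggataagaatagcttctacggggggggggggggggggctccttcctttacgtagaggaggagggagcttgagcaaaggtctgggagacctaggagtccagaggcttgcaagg
Col11a2 (chr17:34038888-34039137, plus strand): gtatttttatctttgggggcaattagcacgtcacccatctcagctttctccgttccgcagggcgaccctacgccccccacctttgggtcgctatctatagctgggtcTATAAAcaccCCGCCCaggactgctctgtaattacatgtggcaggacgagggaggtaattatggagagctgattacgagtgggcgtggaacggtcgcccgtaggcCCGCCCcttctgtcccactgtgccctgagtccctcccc
The Col3a1 window held TATAAA and no GGGCGG, and the Col5a1 and Col6a2 windows shown held GGGCGG and no TATAAA. Another Col6a2 window, which overlapped an annotated exon and is not shown, held 3 matches to GGGCGG and no TATAAA. The Col11a2 window held both. GGGCGG was in the windows of 21 of 35 members (60.0%) and of 35.4% of 27025 genes. TATAAA was in those of 5 of 35 members against 14.3% of genes, and CCAAT in 13 of 35 against 37.5%. A match is a run of letters and not a tested site.

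The first comparison asked whether collagen chains differed between bulk tumours of WT and IL33KO hosts. Of the 35 members tested, 29 had a higher estimate in libraries labelled IL33KO, with a median log2 fold change of +0.61, while the median over all 17258 genes was 0.01 and 51.2% of genes were positive. Without bulk WT 5 the members' median was +0.91. None passed the test: edgeR's quasi-likelihood test with Benjamini-Hochberg adjustment called 0 of the 35, and 0% of all genes tested. An unadjusted p under 0.05 was reached by 14 members, 13 of them higher, against 6.36% of all genes. DESeq2 called 1 member, Col28a1 (0.29% of genes), while 18 were called by limma voom with weights for library quality, of which 17 were higher (19.5% of genes). Groups that did not overlap were seen for 1 member, again Col28a1, and for 0.666% of genes. In bulk tumour, fewer cells of a type and less RNA per cell cannot be told apart.

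All 10 fibrillar chains that were tested had a positive estimate, with a median of +0.90, and 5 of them reached an unadjusted p under 0.05. Col1a1 was at 53.8, 34.8, 67.5, 70.3 and 113 in bulk WT 1 to 5 and at 274, 47.5, 124, 165 and 102 in bulk IL33KO 1 to 5. The groups overlapped: IL33KO 1, 3 and 4 lay above every WT library and IL33KO 2 near the lower end of the WT range. The estimate was 2.08-fold (log2 1.06 ± 0.42 SE, edgeR adjusted p = 0.724). Col1a2 was at 29.4, 24.1, 48.0, 32.0 and 48.5 in WT and at 116, 28.8, 55.0, 98.8 and 59.0 in IL33KO. Its levels in 4 of 5 libraries labelled IL33KO exceeded all of WT, and IL33KO 2 did not (log2 0.96 ± 0.34, adjusted p = 0.724).

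Col3a1, which forms thin fibrils mixed with type I, also had IL33KO 1 and 4 highest and IL33KO 2 lowest of its group. It was at 34.2, 30.6, 52.9, 35.1 and 66.1 in WT and at 111, 37.3, 82.2, 117 and 67.8 in IL33KO. IL33KO 2 lay inside the WT range, and the other 4 of its group were above all of WT (log2 0.91 ± 0.31, adjusted p = 0.724). The type V chains, which start fibril assembly and set fibril width, gave log2 0.89 ± 0.30 for Col5a1, 0.74 ± 0.26 for Col5a2 and 1.02 ± 0.51 for Col5a3. Some fibrillar chains had estimates near 0: Col27a1 was at 3.67 to 5.64 in WT and 4.55 to 5.67 in IL33KO (log2 0.03 ± 0.12), and Col11a2 at 0.179, 0.0903, 0.173, 0.172 and 0.289 against 0.218, 0.233, 0.250, 0.148 and 0.208 (log2 0.22 ± 0.29). Col24a1, which lies outside the rule for naming genes and was chosen after its values were seen, had the largest fibrillar estimate (log2 1.71 ± 0.81). That rested on IL33KO 4, at 4.28 against 0.278 to 0.715 in the rest of its group and 0.153 to 1.09 in WT.

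The main type VI chains showed the same direction. Col6a1 was at 50.4, 41.0, 61.5, 53.8 and 56.8 in bulk WT and at 95.9, 63.3, 71.5, 119 and 57.2 in bulk IL33KO. Only IL33KO 5 lay within the WT range (log2 0.61 ± 0.19, unadjusted p = 0.00893, edgeR adjusted p = 0.724). Col6a2 was at 11.3, 8.21, 18.3, 13.4 and 16.7 against 33.0, 15.2, 22.4, 39.4 and 16.7 (log2 0.89 ± 0.29). Col6a3, whose long chain completes the type VI monomer with Col6a1 and Col6a2, was at 3.02, 2.71, 2.59, 3.15 and 3.27 against 11.5, 2.09, 3.90, 5.20 and 4.75. Here IL33KO 2 was the lowest of the 10 libraries and the other 4 of its group were above all of WT (log2 0.87 ± 0.35, adjusted p = 0.724).

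The alternative type VI chains did not share that order of libraries. Col6a5 was at 0.0923, 0.121, 5.74, 0.102 and 0.368 in bulk WT and at 0.597, 2.70, 0.178, 0.825 and 0.642 in bulk IL33KO. A single library, WT 3, set the direction of its estimate: log2 -0.39 ± 1.21 with that library and 2.51 without it. Col6a6 was at 0.0467, 0.0431, 0.532, 0.0345 and 0.123 against 0.188, 0.286, 0.0903, 0.245 and 0.0599, with WT 3 and IL33KO 2 again the highest of their groups (log2 0.15 ± 0.77, and 1.47 without WT 3). Col6a5 and Col6a6 lie on the same strand of chromosome 9, 27917 bases apart. Col6a4, on the other side of Col6a5, had at most 12 counts in any library.

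Other classes were mixed. Col12a1, a fibril-associated chain that links fibrils to their surroundings, was at 3.41, 3.58, 2.83, 3.31 and 5.59 in bulk WT and at 10.4, 2.66, 4.30, 5.50 and 7.92 in bulk IL33KO (log2 0.70 ± 0.32). IL33KO 1 and 5 exceeded all of WT and IL33KO 2 was below all of it. Col14a1, another fibril-associated chain, did not share that order, at 5.11, 4.89, 2.41, 5.08 and 2.17 against 4.84, 2.36, 2.14, 5.89 and 1.33 (log2 -0.27 ± 0.41). Col7a1, the anchoring fibril chain, was at 1.06, 0.658, 1.39, 1.38 and 5.47 against 6.53, 1.31, 5.41, 2.61 and 5.38 (log2 1.09 ± 0.59, adjusted p = 0.724). WT 5 stood with the high IL33KO libraries, and without it the estimate was 1.91. WT 5 was also the bulk library with the highest acinar marker level, 9741 CPM, and the part of that tissue in the value was not tested.

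The type VIII chains, which form short-chain networks in vessel walls, were both positive and overlapped. Col8a1 was at 4.43, 4.35, 2.32, 3.97 and 6.44 in bulk WT and at 11.9, 2.60, 6.19, 3.44 and 8.76 in bulk IL33KO (log2 0.60 ± 0.40). Col8a2 was at 0.635, 0.518, 0.560, 0.741 and 1.37 against 1.24, 0.782, 1.83, 2.07 and 1.24 (log2 0.90 ± 0.33). In both, 2 of the libraries labelled IL33KO were above every WT library. Col10a1, the chain of hypertrophic cartilage, had the only negative estimate with an unadjusted p under 0.05 (log2 -1.65 ± 0.58). It was chosen after its values were seen and was at 0.824, 0.753, 0.181, 0.755 and 0.107 in WT against 0.108, 0.107, 0.304, 0.162 and 0.158, so WT 1, 2 and 4 stood apart from the other 7 libraries. Its exons overlap those of Nt5dc1 on the opposite strand, and the strand setting of the counting is not given, so reads of both genes cannot be told apart.

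Col28a1, a chain known from peripheral nerve, was the member whose groups did not overlap. It was at 0.291, 0.322, 0.326, 0.252 and 0.298 in bulk WT and at 0.703, 0.597, 0.421, 0.797 and 0.423 in bulk IL33KO. Every library labelled IL33KO was above every WT library (log2 0.97 ± 0.22, unadjusted p = 0.00097, edgeR adjusted p = 0.724, DESeq2 adjusted p = 0.00967). It had at most 354 counts in a library. Of 5 Schwann and nerve marker genes 2 were tested, with a median log2 fold change of +0.04 and a summed level of 1.86 to 3.47 CPM in bulk WT and 2.18 to 3.73 CPM in IL33KO.

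Among the transmembrane chains, Col13a1, found at cell contacts and the neuromuscular junction, was at 0.101, 0.0337, 0.0728, 0.143 and 0.165 in bulk WT and 0.267, 0.200, 0.285, 0.235 and 0.143 in bulk IL33KO. Of the latter only IL33KO 5 was within the WT range (log2 1.12 ± 0.39, adjusted p = 0.724), at no more than 113 counts. Col17a1, the hemidesmosome chain, never exceeded 35 counts in a library (log2 0.56 ± 0.33). Its levels were 0.0367, 0.0235, 0.0322, 0.0297 and 0.0408 against 0.0543, 0.0811, 0.0312, 0.0514 and 0.0251, which overlapped. Col23a1 was at 0.0633, 0.0959, 0.184, 0.0958 and 0.396 against 0.345, 0.143, 0.188, 0.187 and 0.292 (log2 0.45 ± 0.48, and 1.06 without WT 5, the highest of the 10). Among the remaining fibril-associated chains, Col9a3 was at 0.0437, 0.0439, 0.0636, 0.0606 and 0.406 against 0.0678, 0.0506, 0.207, 0.106 and 0.257, and Col20a1 at 0.0882, 0.0631, 0.0803, 0.123 and 0.0979 against 0.0360, 0.100, 0.100, 0.0709 and 0.0721. Both overlapped, with log2 0.15 ± 0.72 (1.36 without WT 5) and -0.26 ± 0.32.

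The abundant basement membrane chains differed little between genotypes in bulk tumour. Col4a1 was at 50.5, 36.8, 37.4, 55.5 and 37.9 in WT and at 60.0, 47.1, 46.9, 41.3 and 28.0 in IL33KO (log2 0.02 ± 0.19, edgeR adjusted p = 0.972). Col4a2, which joins Col4a1 in the same trimer, was at 27.9, 20.1, 19.7, 31.4 and 22.8 against 37.7, 24.2, 27.7, 22.4 and 16.9 (log2 0.07 ± 0.21, adjusted p = 0.91). The ranges overlapped throughout, and the highest and the lowest of the 10 libraries were both labelled IL33KO. Col18a1 was at 69.3, 44.8, 51.4, 81.7 and 49.4 against 78.1, 56.7, 58.4, 54.5 and 37.7 (log2 -0.07 ± 0.21). Col15a1, the second multiplexin, was at 9.39, 7.65, 5.96, 9.57 and 10.3 against 10.8, 6.07, 13.3, 9.25 and 8.19 (log2 0.15 ± 0.22). Col4a5, an X-linked basement membrane chain, was at 6.27, 5.92, 3.61, 5.73 and 2.28 against 4.17, 4.44, 3.14, 5.68 and 1.66 (log2 -0.33 ± 0.34). These p-values do not show that the levels were the same.

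**Figure D2:**
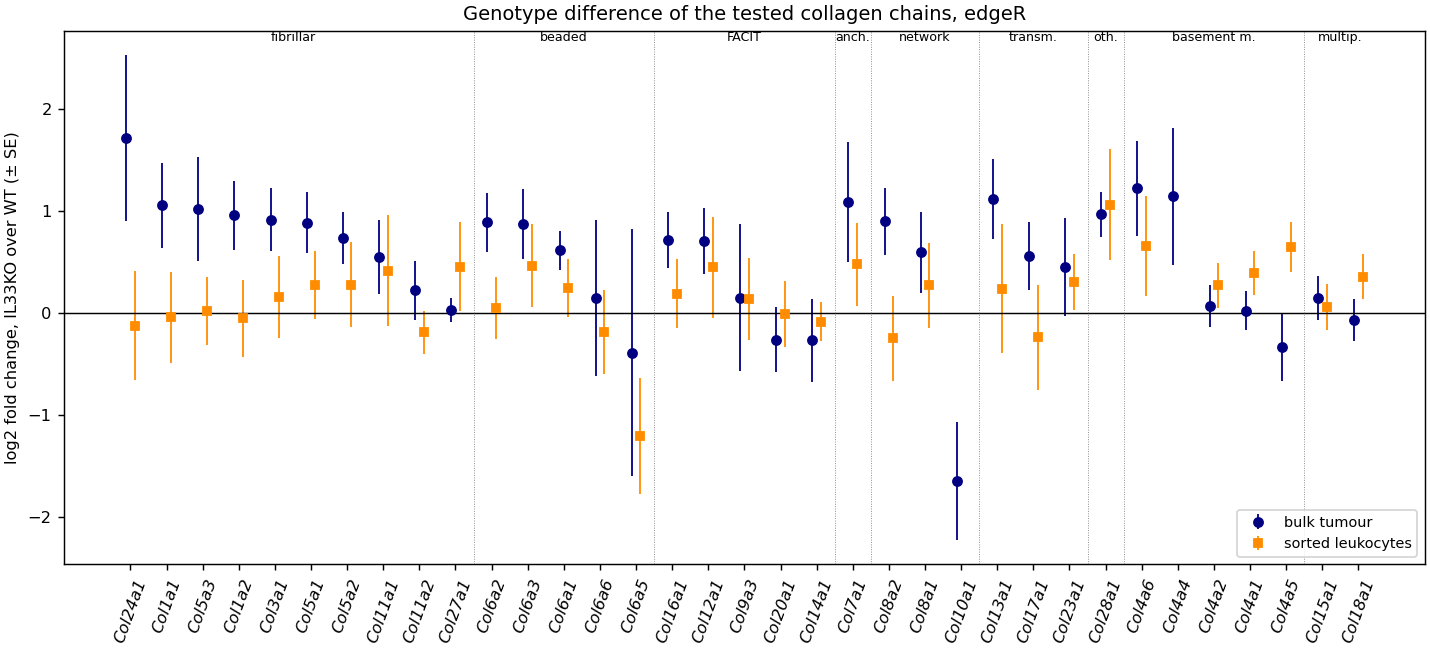
Log2 fold change, IL33KO over WT, of each tested chain with its SE from edgeR, in bulk tumour (circles) and sorted leukocytes (squares), grouped by structural class. All 10 fibrillar chains lie above 0 in bulk, Col4a1, Col4a2 and Col18a1 lie near 0, and no point passed the adjusted test.

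For the pairs of abundant chains taken within a structural class, the ratio varied less from library to library than the levels did. Other pairs within a class were not taken. Col4a5 and Col4a6, both basement membrane chains, had bulk genotype estimates of opposite sign (log2 -0.33 and 1.22). Over the 10 bulk libraries the log2 level of Col4a1 had an SD of 0.33 and that of Col4a2 of 0.35, but the log2 ratio of the pair had an SD of 0.09. The ratio itself ran only from 1.59 to 1.94. For type I collagen the SDs were 0.90 for Col1a1 and 0.76 for Col1a2, against 0.28 for their ratio. The pair Col6a1 and Col6a2 gave 0.26. Col3a1 and Col1a2, which belong to different fibrillar collagens, gave 0.18, less than the type I partners. Ratios between classes were taken only to Col4a1 and Col4a2. Col1a1 to Col4a1 had an SD of 0.89, and ran from 0.945 to 2.98 in WT and from 1.01 to 4.57 in IL33KO. Col1a2 to Col4a2 gave 0.77, Col3a1 to Col4a1 0.79 and Col6a1 to Col4a1 0.48. Levels of Col18a1 and Col4a1, chains of different classes, ran in a similar order over the bulk libraries, but their ratio was not taken. The pairs were chosen and do not stand for their classes. Genotypes are pooled in these SDs, and each ratio shares its library with the levels it is set beside.

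**Figure D3:**
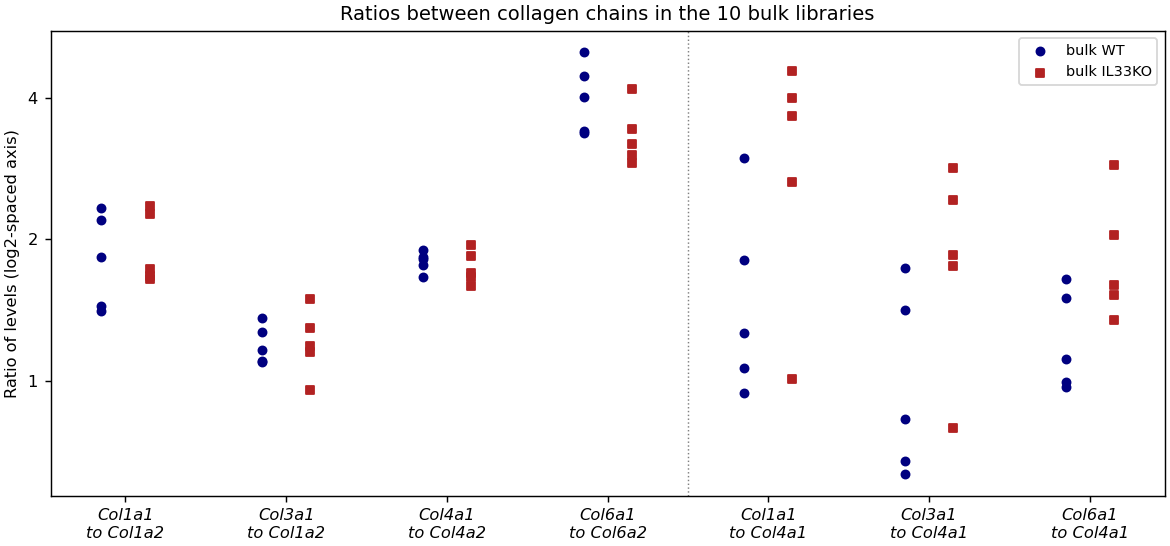
Ratio of the levels of 2 chains (CPM per kilobase) in each of the 10 bulk libraries, on an axis spaced by log2. The ratios shown within a structural class, left of the dotted line, are narrower (Col4a1 to Col4a2 from 1.59 to 1.94). Those shown to Col4a1 across classes are wider (Col1a1 to Col4a1 from 0.945 to 4.57). The pairs were chosen and do not stand for all chains of a class.

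Neighbouring chains had similar genotype estimates in bulk tumour in some pairs and not in others. Pairs that are not neighbours were not set beside them. Col4a1 and Col4a2 lie head to head on chromosome 8 with start sites 21 bases apart, and gave log2 fold changes of 0.02 and 0.07 between genotypes in bulk tumour. Col4a5 and Col4a6 also lie head to head, on the X chromosome with start sites 1309 bases apart, yet gave -0.33 ± 0.34 and 1.22 ± 0.46 in bulk tumour. Col3a1 and Col5a2, tail to tail on chromosome 1, gave 0.91 and 0.74. Col6a1 and Col6a2, on the same strand of chromosome 10, gave 0.61 and 0.89. Col18a1 lies on that strand too, and gave -0.07 beside the 0.61 of Col6a1. In all, 12 pairs of members lie within 500000 bases of each other, and exons of 13 members overlap those of another annotated gene.

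Markers of fibroblasts had estimates in the same direction as the fibrillar chains. Of 12 fibroblast markers without any collagen, all 12 had a positive estimate in bulk tumour (median log2 +0.70), 5 had an unadjusted p under 0.05 and 0 were called by edgeR or DESeq2, while voom called 9. Over all genes 6.36% had an unadjusted p under 0.05 and voom called 19.5%. Their summed level was 542 to 968 CPM in bulk WT and 881 to 1335 CPM in bulk IL33KO, with none at 0. Fbln2 carried most of that sum, at 544 ± 90.5 CPM in bulk WT and 705 ± 129 CPM in bulk IL33KO (n = 5 each). Its log2 fold change was 0.36 ± 0.15. Bulk IL33KO 2, the lowest of its group for Col1a1, was at 1013 CPM for the sum of the 12 markers, the middle of its group. Per CPM of fibroblast markers, Col1a1 ranged from 0.422 to 0.766 CPM over WT libraries and from 0.308 to 1.37 CPM over IL33KO libraries, with IL33KO 2 the lowest and IL33KO 1 the highest of the 10. All 7 mesothelial markers (median +1.78) and all 8 pericyte and smooth muscle markers (median +0.44; 132 to 532 CPM in WT and 168 to 489 CPM in IL33KO) were positive too. The mesothelial sum was 352 to 459 and 376 to 587 CPM, of which Msln, also on the tumour epithelium list, made up 387 ± 34.5 and 425 ± 62.1 CPM, with a log2 fold change of 0.12 ± 0.11. The 8 endothelial markers were all positive with a median of +0.24 (138 to 194 and 154 to 216 CPM), and the 10 leukocyte markers with one of +0.26 (661 to 1552 and 787 to 1553 CPM). Of 8 tumour epithelium markers 4 were positive (median -0.04; 7283 to 9370 and 6579 to 9375 CPM). All 7 B cell markers were positive, with a median of +1.40 and a summed level of 2.51 to 54.3 CPM in WT and 7.81 to 157 CPM in IL33KO. None of the 7 acinar markers tested was (median -2.12). None of these markers was called by edgeR or was at 0 in every library of a group (DESeq2 called 3 mesothelial markers; voom called 6 mesothelial, 6 B cell, 9 leukocyte, 3 pericyte and smooth muscle and 1 endothelial marker higher and 2 tumour epithelium markers lower), and the part of cell composition in the collagen levels was not tested.

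The same question was asked in the sorted leukocytes. There Col10a1 and Col4a4 were also left out for low counts, and edgeR called 0 of 33 members tested (0.012% of all genes), and so did DESeq2 and limma voom with quality weights. An unadjusted p under 0.05 was reached by 1 member against 12.9% of all genes, and no member had groups that did not overlap, against 3.58% of genes. The median log2 fold change was +0.24, with 23 of 33 positive, and it was -0.04 when sorted IL33KO 1 was left out. All genes had a median of 0.02. Col1a1 was at 13.1, 19.6, 28.5, 37.5 and 27.1 in sorted WT and at 46.0, 25.3, 15.7, 6.67 and 27.3 in sorted IL33KO (log2 -0.04 ± 0.45). The highest and the lowest library were both labelled IL33KO, and the groups overlapped fully. Col1a2 (-0.05 ± 0.38) and Col3a1 (0.16 ± 0.40) had the same pattern.

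The member with an unadjusted p under 0.05 was Col4a5. It was at 0.328, 0.441, 0.677, 0.809 and 0.702 in sorted WT and at 0.954, 0.696, 1.16, 0.825 and 0.961 in sorted IL33KO. Only IL33KO 2 lay within the WT range (log2 0.65 ± 0.24, unadjusted p = 0.0226, edgeR adjusted p = 0.311). Col6a5 was at 0.498, 0.308, 0.147, 0.176 and 0.692 against 0.330, 0.197, 0.0365, 0.116 and 0.107, which overlapped (log2 -1.21 ± 0.57, adjusted p = 0.412). Col28a1 was at 0.00432, 0.0437, 0.0464, 0.0835 and 0.105 against 0.104, 0.143, 0.182, 0.0621 and 0.0979 (log2 1.06 ± 0.54, adjusted p = 0.452). Its direction was that of the bulk tumour, with 2 of 5 IL33KO libraries above all of WT.

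Whether the genotype difference itself differed between sorted and bulk libraries was tested in a fit of all 20. It was called for 0 of 35 members and for 0% of genes, and an unadjusted p under 0.05 was reached by 2 members against 11.2% of genes. These were Col4a5 (0.95 ± 0.44, unadjusted p = 0.0428) and Col8a2 (-1.16 ± 0.54, unadjusted p = 0.0439), both with an edgeR adjusted p of 0.445. The larger bulk estimates of Col1a1 and Col1a2 were not told apart from those in sorted cells (-1.13 ± 0.65 and -1.04 ± 0.54, adjusted p = 0.481 and 0.461). DESeq2 also called 0 members, and limma voom with quality weights called 2, Col6a5 and Col6a6, both with a lower genotype difference in sorted cells.

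The sorted libraries were then compared with bulk tumour within each genotype. Collagen chains were mostly lower in sorted cells. In WT hosts 25 of 35 members were called lower (34.3% of all genes) and 2 higher (33.7%), with a median log2 fold change of -1.84. In IL33KO hosts 27 were called lower (31.7%) and 2 higher (31.3%), with a median of -2.41. The median over all genes was 0.00 in WT and 0.02 in IL33KO. The same 25 members were lower in both genotypes. In WT, sorted and bulk libraries did not overlap for 23 members lower and 1 higher, against 4403 and 4757 of 18145 genes. In IL33KO this held for 25 members lower and 1 higher, against 4395 and 4459 genes.

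The depth of the difference varied between chains. In WT and IL33KO hosts respectively, Col1a1 was lower by log2 -1.43 ± 0.47 and -2.56 ± 0.49 (edgeR adjusted p = 0.0111 and 0.00016). Col3a1 was lower by -1.46 ± 0.39 and -2.24 ± 0.40. Sorted libraries still held Col3a1 at 10.3 to 21.7 in WT and 5.83 to 31.1 in IL33KO, so type I and III chains remained among the most abundant collagens of the sorted material. The basement membrane chains Col4a1 (-2.03 ± 0.23 and -1.69 ± 0.22) and Col4a2 (-1.80 ± 0.23 and -1.62 ± 0.23) and the multiplexin Col18a1 (-2.26 ± 0.24 and -1.86 ± 0.24) were lower in both. Col18a1 was at 6.72, 10.7, 12.6, 16.8 and 15.2 in sorted WT and 17.7, 11.9, 17.0, 13.5 and 18.7 in sorted IL33KO, with no overlap with bulk tumour.

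The largest differences were those of 2 chains outside the rule for naming, chosen here after their values were seen: Col10a1 in WT (-5.36 ± 0.90, and -2.97 ± 0.82 in IL33KO), at no more than 9 counts in any sorted library, and Col24a1 in IL33KO (-4.40 ± 0.82, and -2.54 ± 0.76 in WT). Col4a5 gave -3.01 ± 0.33 and -2.06 ± 0.32. Other large differences were those of Col8a1 (-3.03 ± 0.46 and -3.38 ± 0.47), Col12a1 (-2.97 ± 0.48 and -3.25 ± 0.48) and Col7a1 (-2.73 ± 0.58 and -3.36 ± 0.59). Col15a1 had the smallest difference among the members lower in both (-1.18 ± 0.23 and -1.28 ± 0.23). It was at 3.00 to 4.54 in sorted WT against 5.96 to 10.3 in bulk WT, with no overlap. The type VI chains Col6a1 (-1.96 ± 0.27 and -2.35 ± 0.27), Col6a2 (-1.64 ± 0.33 and -2.51 ± 0.34) and Col6a3 (-2.01 ± 0.42 and -2.45 ± 0.43) were lower in both. With edgeR, Col6a5 and Col6a6 were called lower in IL33KO only (adjusted p = 0.0414 and 0.0251, against 0.131 and 0.06 in WT). DESeq2 called Col6a6 lower in WT as well (-1.48, DESeq2 adjusted p = 0.0328). Neither edgeR nor DESeq2 called the difference between genotypes for either chain, while voom called it for both (-4.10 and -2.46). The IL33KO call of Col6a5 was lost without bulk IL33KO 2 or 4 or sorted IL33KO 2, 3, 4 or 5 (-1.83 to -2.74). It was also lost with low-count genes kept (-2.67). That of Col6a6 was lost without bulk IL33KO 2 or 4 or sorted IL33KO 2 or 4 (-1.57 to -1.70). With both sorted libraries numbered 3 left out, both IL33KO calls were lost (-2.40 and -1.80). In WT, Col6a6 was called lower when bulk WT 1, 2 or 4 was left out (-1.70 to -1.73) and was at -0.14 without bulk WT 3, where Col6a5 was at 1.09. Without bulk WT 5 the WT estimate of Col7a1 was -1.90.

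**Figure D4:**
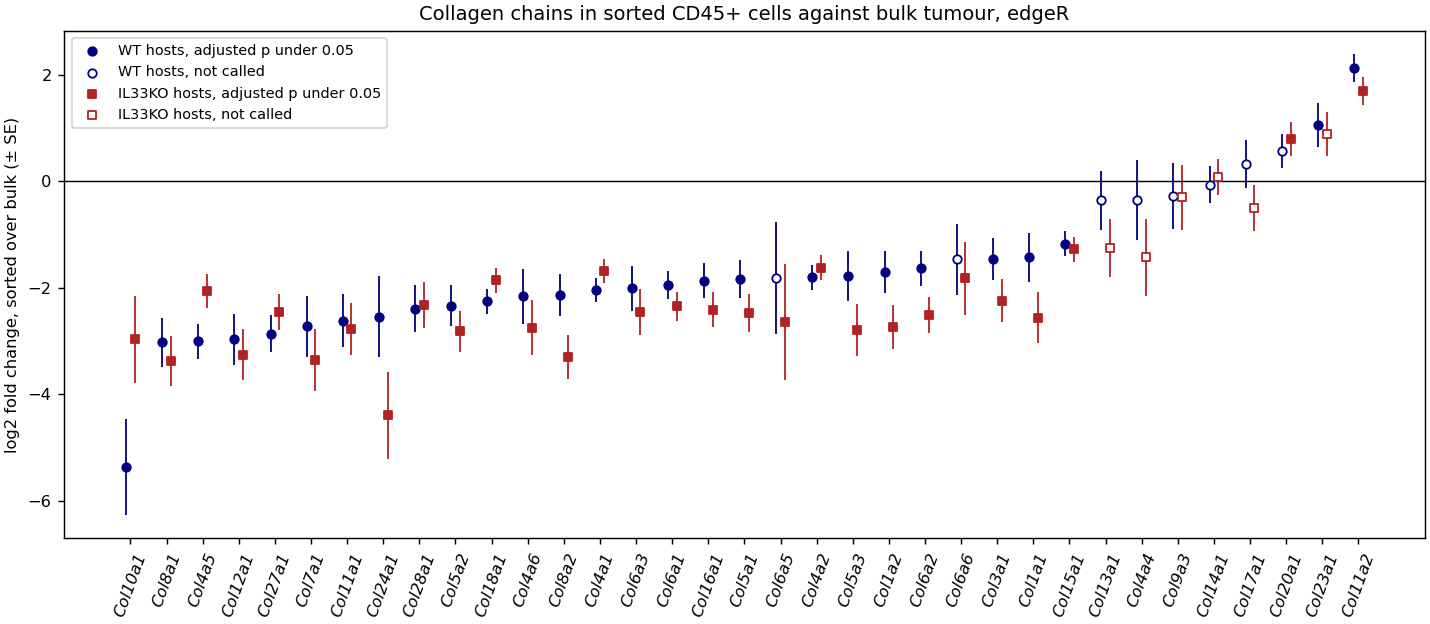
Log2 fold change, sorted over bulk, of the 35 tested chains with the SE from edgeR, in WT hosts (circles) and IL33KO hosts (squares), ordered by the WT value; filled points had an adjusted p under 0.05. Most chains lie below -1, and Col11a2, Col23a1 and Col20a1 are at the upper end.

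A few chains went the other way. Col11a2, a minor chain of cartilage-type fibrils, was the only member that edgeR called higher in sorted cells in both genotypes (log2 2.12 ± 0.26 in WT, 1.69 ± 0.26 in IL33KO, edgeR adjusted p = 9.2e-07 and 1.6e-05). It was at 0.771, 0.908, 0.623, 0.869 and 0.761 in sorted WT, all above the bulk WT range that ends at 0.289. In sorted IL33KO it was at 0.943, 0.659, 0.409, 0.611 and 0.792, also above all bulk libraries, with 44 to 332 counts over the 20 libraries. Its levels were therefore low next to Col1a1 even in sorted cells. Col23a1, a transmembrane chain, was higher in WT (1.06 ± 0.41, adjusted p = 0.0296) and not called in IL33KO (0.89 ± 0.41, adjusted p = 0.0657). It was at 0.414, 0.411, 0.208, 0.383 and 0.329 in sorted WT and 0.650, 0.374, 0.247, 0.400 and 0.470 in sorted IL33KO, overlapping with bulk in both genotypes. That call in WT was lost when any of bulk WT 1, 2 or 4 or sorted WT 1, 2 or 4 was left out (0.85 to 1.03), and the estimate was 1.66 without bulk WT 5. In IL33KO edgeR called Col23a1 higher without bulk IL33KO 1, bulk WT 1 or 5, or sorted IL33KO 3 (0.89 to 1.08). With all libraries kept, DESeq2 (0.88) and voom (1.16) also called it higher in IL33KO.

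Col20a1, a fibril-associated chain, was higher in IL33KO (0.80 ± 0.32, adjusted p = 0.0356) and not called in WT (0.56 ± 0.32, adjusted p = 0.123), with at most 57 counts in a library. It was at 0.132, 0.146, 0.0774, 0.197 and 0.117 in sorted WT and 0.179, 0.103, 0.0801, 0.111 and 0.183 in sorted IL33KO. The call was lost without bulk IL33KO 1, 4 or 5 or sorted IL33KO 1 or 5 (0.62 to 0.78), and with low-count genes kept (0.77). In WT, voom called Col20a1 higher (0.60). Col14a1 was at a similar level in both materials, with 3.09, 3.38, 5.67, 4.05 and 2.58 in sorted WT and 3.50, 3.32, 3.97, 2.75 and 3.94 in sorted IL33KO. Its differences from bulk were -0.07 ± 0.34 and 0.08 ± 0.34. With all libraries kept, edgeR did not call Col13a1, Col17a1 or Col9a3 in either genotype, with SEs of 0.44 to 0.62. It called Col13a1 lower in IL33KO without bulk IL33KO 5, bulk WT 2 or 5, sorted IL33KO 1 or 5, or sorted WT 3 (-1.26 to -1.57). Col13a1 was also called lower there by DESeq2 (-1.27), with DESeq2's size factors (-1.27) and by voom (-1.32). In WT, voom called Col9a3 higher in sorted cells (1.04). None of Col13a1, Col17a1 and Col9a3 exceeded 121 counts in a library.

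Markers of other cells were present in the sorted material. There the 12 fibroblast markers summed to 357 to 568 CPM in WT and 390 to 513 CPM in IL33KO, and none was at 0. Thy1, which T cells also express, carried much of that sum, at 209 ± 64.3 CPM in sorted WT and 192 ± 62.0 CPM in sorted IL33KO (n = 5 each). Against bulk WT 6 of the markers were lower and 3 higher (Thy1, Pi16 and Pdpn), and against bulk IL33KO 8 were lower and 2 higher (Thy1 and Pi16). Of all genes, 34.3% were called lower and 33.7% higher in WT, and 31.7% and 31.3% in IL33KO. Tumour epithelium markers summed to 1059 to 2620 CPM in sorted WT and 1831 to 2803 CPM in sorted IL33KO, and 7 of 8 and 8 of 8 were lower than in bulk. The endothelial markers summed to 134 to 220 and 155 to 262 CPM, 7 of 8 and 6 of 8 being lower. Pecam1, which leukocytes and platelets also express, carried most of that sum, at 113 ± 28.2 and 116 ± 27.7 CPM, and was higher than in bulk (log2 2.12 ± 0.27 and 1.78 ± 0.27). All 10 leukocyte markers were higher in both genotypes. The part of carried-over cells in the collagen levels of sorted libraries was not tested. With both libraries numbered 3 left out, 28 members were called in WT and 29 in IL33KO, against 27 and 29 with them.

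Genes that make, process and read collagen gave the setting of these levels. In bulk tumour edgeR called 0 of the 71 genes tested in the 5 lists below between genotypes. In edgeR 20 had an unadjusted p under 0.05, against 6.36% of all genes. DESeq2 called 2 (0.29% of all genes) and voom 28 higher and 3 lower (19.5% of all genes in either direction). In bulk tumour, genes named from a list were among its 3 with the smallest p, so they need not be typical of it. Of 13 tested proteoglycans and matricellular proteins that bind collagen, 12 had a positive estimate (median +0.72, 6 with an unadjusted p under 0.05). Ogn, which encodes osteoglycin, averaged 1.12 ± 0.777 CPM over WT libraries and 3.43 ± 0.929 CPM over IL33KO libraries (n = 5 each, log2 1.60 ± 0.38, edgeR adjusted p = 0.724). Fmod, fibromodulin, was at 4.63 ± 1.65 and 10.4 ± 3.65 CPM, and Sparc at 433 ± 86.1 and 654 ± 160 CPM. Of 13 processing and cross-linking genes 12 were positive (median +0.44, 4 with an unadjusted p under 0.05), among them the lysyl oxidases Lox (log2 0.85 ± 0.34) and Loxl2 (0.37 ± 0.10). The 21 genes of folding and modification in the endoplasmic reticulum were split, 13 positive with a median of +0.08 and 5 with an unadjusted p under 0.05. Mia3, needed to export procollagen, had a negative estimate (-0.28 ± 0.09). Of 14 degradation genes 10 were positive (median +0.18, 4 with an unadjusted p under 0.05), with Mmp2 at 46.7 ± 18.3 and 74.8 ± 20.6 CPM. Of 10 collagen receptors tested 6 were positive (median +0.21, 1 with an unadjusted p under 0.05, Ddr2 at log2 0.73 ± 0.32). In sorted cells 0 of 70 genes were called by edgeR, DESeq2 or voom, with list medians from -0.13 to +0.38. In edgeR 3 had an unadjusted p under 0.05, against 12.9% of all genes.

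The same lists were counted in sorted cells against bulk tumour, where 34.3% of all genes were lower and 33.7% higher in WT, and 31.7% and 31.3% in IL33KO. Of 13 processing and cross-linking genes 10 were lower in WT and 12 in IL33KO, and 1, Adamts14, was higher in WT, and of 12 proteoglycan and matricellular genes 8 and 10 were lower while 1, Thbs1, was higher in both. Of 11 receptors 8 were lower in each genotype. The 3 higher in both were Lair1 (log2 3.19 ± 0.14 and 2.84 ± 0.14), an inhibitory collagen receptor of leukocytes, Mrc1 (3.09 ± 0.26 and 2.60 ± 0.26), which takes up collagen into macrophages, and the platelet receptor Gp6 (2.86 ± 0.46 and 2.30 ± 0.45). The degradation list had 7 higher and 4 lower in WT and 6 higher and 5 lower in IL33KO. Mmp9 (3.93 ± 0.36 and 3.85 ± 0.35) and Mmp8 (3.89 ± 0.73 and 4.69 ± 0.76), proteases of neutrophils and macrophages, were higher in both, and the inhibitor Timp3 was lower (-2.43 ± 0.27 and -2.35 ± 0.27). In the endoplasmic reticulum list 6 were higher and 11 lower in WT, and 6 higher and 12 lower in IL33KO. The collagen chaperone Serpinh1 was lower (-1.50 ± 0.36 and -2.25 ± 0.37) and the lysyl hydroxylase Plod1 higher (1.63 ± 0.16 and 1.16 ± 0.16).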

How the data were processed

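RNA-seq libraries were analysed from 20 samples in 4 groups of 5. The authors deposited raw counts per gene, made with HTSeq on the mm10 build, per the submitters' processing notes, which also name Picard and DESeq. Libraries were stranded and poly(A)-selected, per the labels' protocols; which aligner was used, and whether counting used strand, is not given in the sources used here. The 5 summary lines of the table, 26.1 to 40.5% of the reads of a library, were left out. A table of scaled values was not used.

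Members and gene lists were chosen with earlier results of these data known. Genes were filtered with filterByExpr, scaled with TMM and tested with edgeR 4.0.16 (quasi-likelihood, robust, R 4.3.3), two-sided, with Benjamini-Hochberg adjustment over all genes tested and a threshold of 0.05. Bulk and sorted genotype comparisons were fitted on their own 10 libraries, and the others on all 20. SEs are those of the log2 fold change. Scripts were tested on simulated data. Levels are TMM-scaled CPM divided by the GENCODE M21 exon length. Promoters came from RefSeq (GRCm38.p6).

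Named with all libraries were the 3 most abundant chains of the fibrillar, basement membrane and beaded classes, up to 2 of each other class, every chain not lower in sorted cells in both genotypes, and the 3 with the smallest p in each genotype comparison, 26 in all. Alternatives were DESeq2 1.42.0, its size factors, no filter, limma 3.58.1 voom with quality weights, the replicate number as a block, and each library left out.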

Additional observations from a re-analysis of the deposited data

Results flagged for a closer look

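Levels (CPM per kilobase of exon) of the 26 chains named by rule were examined in 4 groups each, 104 groups in all, for a library whose gap to the nearest other exceeded 0.71 of the group's range. Chance flags about 1 in 20 groups where values are normally distributed. The levels were not on a log scale and the groups share libraries, so that rate need not hold here. There were 8 flags, all at the high end and all in bulk tumour. Bulk WT 5 accounted for 5 of them: Col7a1 at 5.47 (other WT libraries 0.658 to 1.39), Col12a1 at 5.59 (2.83 to 3.58), Col8a2 at 1.37 (0.518 to 0.741), Col9a3 at 0.406 (0.0437 to 0.0636) and Col26a1 at 0.0158 (0 in the others). The summed acinar marker level of that library was 9741 CPM against 38.5 to 41.7 CPM in the other WT libraries, and its leukocyte marker level 1552 CPM against 661 to 1189 CPM. Whether either has a part in the collagen levels was not tested.

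Bulk WT 3 was the highest for the neighbouring genes Col6a5, at 5.74 (others 0.0923 to 0.368), and Col6a6, at 0.532 (others 0.0345 to 0.123). Col6a5 was also far from its group in bulk IL33KO 2, at 2.70 (others 0.178 to 0.825). No explanation was tested for these levels.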

How the results depend on the processing

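In bulk tumour the number of chains called between genotypes was 0 under edgeR with every library left out in turn, with DESeq2's size factors and without the filter, 1 with DESeq2 (Col28a1) and 18 with limma voom and quality weights. For the difference between materials voom called 2, and the other settings 0. The bulk median log2 fold change was 0.53 to 0.91 with 1 library left out, the highest without WT 5. The sorted median was -0.04 to 0.36. With voom the medians were 0.83 and -0.000592. Calls of sorted against bulk were 26 to 27 in WT and 26 to 31 in IL33KO with 1 library left out.

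Correlations of the deviations of same-numbered libraries were -0.26 to 0.59 and not all over 0.1, so the numbers were not taken as pairs. Between genotypes, the same number was the best match for bulk IL33KO 5 (0.59) and for sorted IL33KO 2, 3 and 5 (0.19, 0.27 and 0.34). Between materials, it was the best match for sorted WT 4 (0.17) and sorted IL33KO 3 (0.30). For the other libraries a different number matched best. With the replicate block 0 chains were called in bulk, sorted and difference, and 27 and 28 in sorted against bulk, where the IL33KO calls of Col6a6 (-1.76) and Col20a1 (0.80) were lost; medians were 0.67 and 0.12.

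Of the values of single chains 1615 kept direction and call, 34 gained a call, 27 lost one and 47 changed sign. In bulk genotype, Col4a1 gave -0.00888 without the filter, -0.19 with voom and -0.094 to 0.15 with 1 library left out; Col4a2 gave -0.19 and -0.093 to 0.19, Col15a1 -0.10 and -0.026 to 0.25, and Col8a1 -0.00141 with voom. Ranges with 1 left out were -0.19 to 0.074 for Col18a1, -0.11 to 1.47 for Col6a6 (1.93 and called with voom), and -0.20 to 1.36 for Col9a3. Col6a5 gave 1.80 with the replicate block, 2.82 with voom (called) and -1.21 to 2.51. In sorted against bulk in WT, Col6a5 gave 0.57 with the replicate block, 1.34 with voom and -2.19 to 1.09. Col9a3 gave 0.38, 1.04 (called) and -0.49 to 0.94 in the same settings (positive without bulk WT 5). Col6a6 gave 0.093 with voom. Col14a1 gave -0.26 to 0.045 and Col17a1 -0.042 to 0.58. In IL33KO, voom gave -0.075 for Col14a1 (-0.13 to 0.39 with 1 left out) and 0.10 for Col9a3 (-0.59 to 0.047). The causes were not tested. Leaving out both sorted libraries numbered 3 was chosen after seeing the data. Chains with few counts, such as Col17a1 and Col20a1, are limited by depth.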
